A study of Rattus norvegicus with 6 samples.

Results

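The phase II conjugation enzymes of the rat kidney were taken as every gene whose symbol begins with *Ugt*, *Gst* (alpha, kappa, mu, omega, pi or theta), *Sult*, *Nat* or *Glyat* and matches the naming pattern of these families. They were 63 of the 17051 genes measured, namely 18 UDP-glucuronosyltransferases (UGT), 20 glutathione *S*-transferases (GST), 14 sulfotransferases (SULT), 9 *N*-acetyltransferases (NAT) and 2 glycine *N*-acyltransferases (GLYAT). A gene was tested when it had at least 30 estimated reads in at least 1 rat, which held for 44 of the 63 members and for 11553 genes in all.

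RNA was sequenced from kidney tissue of 6 male Sprague Dawley rats, with 1 library per rat. The 3 rats of the AL group (rats 61, 71 and 88) ate ordinary laboratory chow ad libitum, and the 3 rats of the HD group (rats 64, 67 and 69) ate a hyperammonemic diet, a mixture of amino acids modelled on the composition of hemoglobin and stirred into chow powder, for a week. The diet loads the animal with nitrogen, and the study used it to raise ammonia formation in the kidney. No genetic change or drug was given to either group, and ages were not given in the sources used here.

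Phase II enzymes attach a polar group to a foreign or endogenous compound so that it can leave the body in urine or bile. UGT enzymes transfer glucuronic acid from UDP-glucuronic acid, GST enzymes transfer glutathione, SULT enzymes transfer sulfate from the activated sulfate PAPS, NAT enzymes transfer an acetyl group from acetyl-CoA, and GLYAT joins glycine to acyl-CoA esters such as benzoyl-CoA. In the kidney most of this chemistry takes place in the proximal tubule, where uptake carriers on the blood side and efflux pumps on the urine side move substrates and conjugates. The symbols also bring in relatives with other tasks, such as *Ugt8*, which builds the brain and kidney lipid galactosylceramide, *Nat10*, which acetylates RNA, and *Nat8l*, which makes *N*-acetylaspartate.

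Total estimated counts ranged from 12499945 to 30466461 reads per rat, a ratio of 2.44, and 2 of the 3 largest libraries were HD rats. Among markers of kidney cell types, the summed TPM (the RSEM level corrected for transcript length and library size) of 7 proximal tubule genes was 8146 to 8786 in AL rats and 9227 to 10171 in HD rats, and 6 of the 7 were higher in HD rats, among them *Slc22a6*, which is also in the list of carriers used further on. For 6 podocyte genes it was 20.4 to 52.9 in AL and 98.5 to 229 in HD rats, with 6 of 6 higher. For 4 inner medulla genes it was 103 to 605 in AL and 59.6 to 107 in HD rats, with 4 of 4 lower, and for 5 leukocyte genes it was 253 to 475 and 152 to 376, with 5 of 5 lower. Summed TPM of 5 adipocyte genes was 157 to 226 in AL and 156 to 289 in HD rats, with 5 of 5 higher, and that of 4 thick ascending limb genes was 3380.1 to 3929 and 2314 to 3824, with 4 of 4 lower. Of 3 distal convoluted tubule genes, 2 were measured and only 1, *Slc12a3*, was tested and was higher in HD rats. The 2 summed to 7.80 to 10.4 TPM in AL and 17.7 to 100.3 TPM in HD rats. No marker of these lists was at 0 in all rats. Of 6 hepatocyte genes, 4 stayed under 30 reads in every rat, and the 6 summed to 2.76 to 4.48 TPM in AL and 3.56 to 4.07 TPM in HD rats. In bulk tissue fewer cells of a type and less RNA per cell cannot be told apart, and the part of tissue makeup in the differences given here was not tested.

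The 63 members together took up 1.64 to 1.80% of all TPM in the 6 rats. Their summed level was 16404, 17474 and 17416 TPM in AL rats 61, 71 and 88 and 18007, 17350.3 and 17820.0 TPM in HD rats 64, 67 and 69, so the total was nearly the same under both diets. GST members made up most of it, with 56.4 to 63.4% of the members' TPM in AL rats and 60.4 to 67.9% in HD rats. SULT members held 17.1 to 23.7% in AL rats and 12.3 to 14.7% in HD rats, which did not overlap in TPM. Expressed as summed TPM, the SULT class stood at 3287, 4142 and 2976 in AL rats and 2654, 2139 and 2202 in HD rats. The ratio of means was 0.672. *Sult1c2a* alone held 65.9 to 79.0% of SULT TPM in AL rats and 67.4 to 71.9% in HD rats. Outside *Sult1c*, every SULT family overlapped between the diets in TPM. In counts scaled to library size (normalized CPM), *Sult1c2a* overlapped too, with 3775 in AL rat 88 and 4014 in HD rat 64. The UGT class stood at 549, 688 and 503 TPM in AL rats and 957, 706 and 626 TPM in HD rats, where HD rat 69 lay below AL rat 71. Summed GST and NAT levels overlapped between the diets, with ratios of means, HD over AL, of 1.13 and 1.11, and so did GLYAT, with 1291 to 1355 TPM in AL rats and 1305 to 1561 TPM in HD rats.

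**Figure D1:**
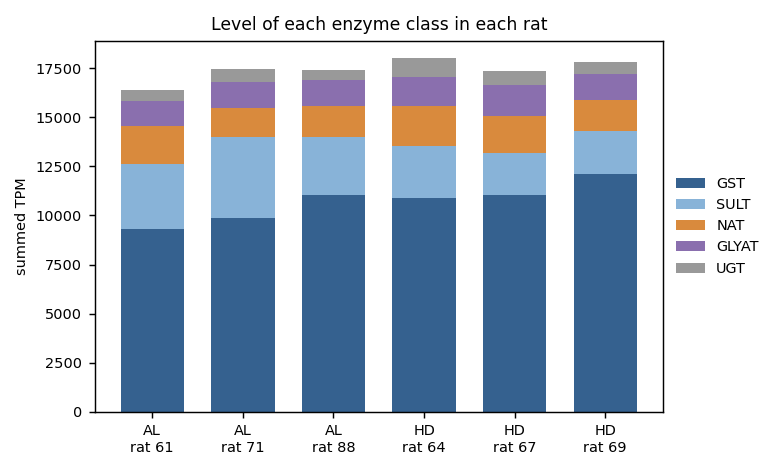
Summed TPM of the 63 conjugation enzymes in each rat, stacked by enzyme class, with AL rats to the left and HD rats to the right. The bars are of nearly equal height, from 16404 to 18007 TPM, while the SULT segment is 2976 to 4142 TPM in AL rats and 2139 to 2654 TPM in HD rats.

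There were 6 members with a mean level of 1000 TPM or more and 20 with 100 TPM or more. The highest was *Gsta5*, an alpha class GST, with a mean of 2900.1 TPM, rank 29 of all genes, followed by the sulfotransferase *Sult1c2a* with 2058 TPM, *Gsta2* with 1872 TPM, *Gsta3* with 1606 TPM, *Glyat* with 1384 TPM and *Gstp1* with 1260.5 TPM. Neighbours in this order overlapped in their range over the 6 rats, except between *Nat8b*, lowest at 616 TPM, and *Ugt1a1*, highest at 527 TPM, and between *Sult1a1*, lowest at 83.7 TPM, and *Nat9*, highest at 59.7 TPM. At the other end 22 members averaged below 1 TPM.

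No member, and no other gene, passed an adjusted *P* of 0.05 in edgeR's quasi-likelihood test with Benjamini-Hochberg adjustment (0 of 11553, or 0%), and the smallest adjusted *P* of any gene was 0.0980. Among the members the adjusted *P* ran from 0.368 to 0.990. DESeq2, the tool of the study, was run again here. It called 182 of 11543 genes (1.58%) at the same threshold, and 2 of them were members, *Ugt1a6* and *Ugt2b15*. The study reported a larger number of differentially expressed genes from its own run. At an unadjusted *P* below 0.05 edgeR listed 9 of the 44 tested members (20.5%), beside 1224 of all 11553 genes (10.6%). Of the 9, 5 were higher in HD rats (all genes 4.66%) and 4 were lower (all genes 5.94%). Among the 5, *Ugt2b7* and *Nat8l* reached the reads needed for testing only in HD rats. They had at most 12 and 8 reads in any AL rat, so their direction is not independent of that filter. The 4 lower members met the filter under both diets. With at least 10 reads required in every rat, *Ugt2b7* and *Nat8l* were not tested and the 9 became 7. Without AL rat 71 the 9 became 5. DESeq2 listed 12 members at an unadjusted *P* below 0.05, beside 1325 of all genes (11.5%).

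The median log2 fold change of the 44 members, HD against AL, was 0.17, and that of all genes was 0.00673. By class the medians were 0.66 for 9 UGT members (6 higher, 3 lower), 0.22 for 16 GST members (13 higher, 3 lower), −0.28 for 10 SULT members (2 higher, 8 lower), 0.17 for 8 NAT members (6 higher, 2 lower) and 0.21 for *Glyat* alone. When counts were scaled by library size only, the median of all genes became −0.0740 and the GST split became 10 higher and 6 lower, while the UGT, SULT and NAT splits were the same counts as before. In 5 members every HD rat lay outside the AL range, 3 above (all genes 7.25%) and 2 below (all genes 7.01%), or 11.4% of the 44 beside 14.3% of all genes, a share near the background. An exact permutation test with 3 rats against 3 cannot give a two-sided *P* below 0.1, even for such a gene.

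**Figure D2:**
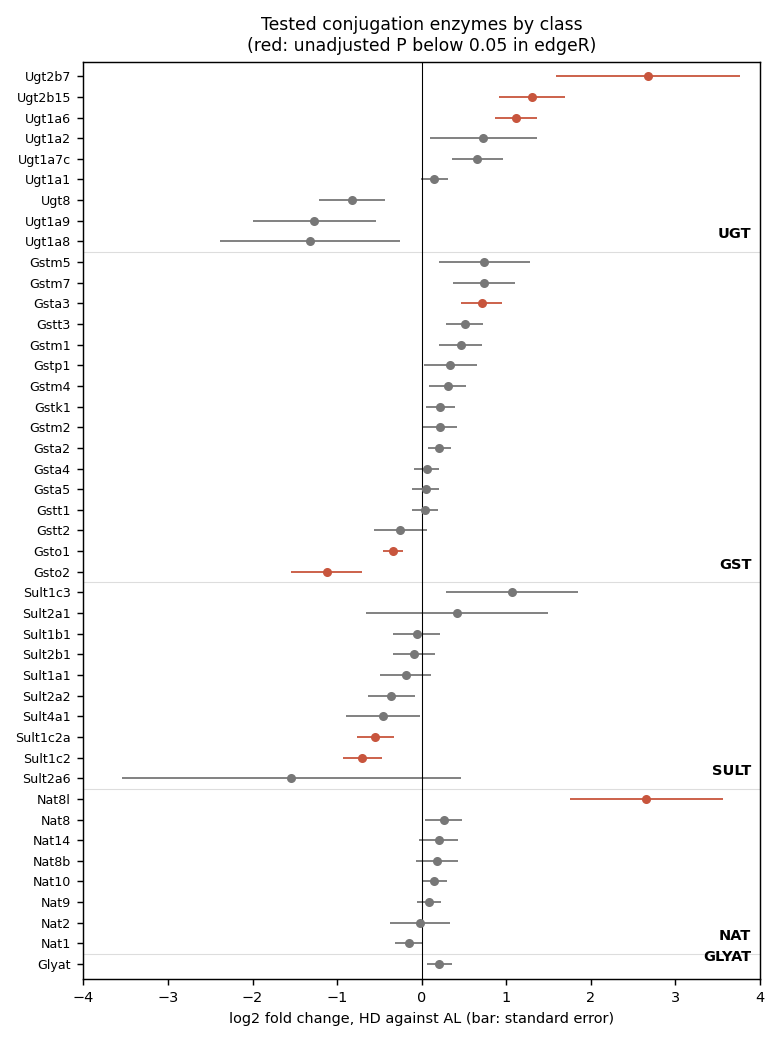
Log2 fold change, HD against AL, of each of the 44 tested members, grouped by class, with bars of 1 standard error from edgeR. Members with an unadjusted *P* below 0.05 are in red. Most GST points lie to the right of 0 and most SULT points to the left, and the widest bars belong to members with few reads.

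In the UGT class 9 of 18 members were tested. *Ugt1a6*, which glucuronidates small planar phenols, had the smallest adjusted *P* of the members. Its level in normalized CPM (counts scaled to library size with TMM factors) was 27.4, 47.7 and 25.9 in AL rats 61, 71 and 88 and 84.8, 74.5 and 61.2 in HD rats 64, 67 and 69. Every HD rat lay above every AL rat. The mean was 33.6 ± 12.2 CPM in AL and 73.5 ± 11.8 CPM in HD rats (SD, n = 3), 2.18-fold higher in HD rats, or 1.12 ± 0.25 (SE) on the log2 scale (edgeR adjusted *P* = 0.368, DESeq2 adjusted *P* = 0.00602). Leaving out any 1 rat gave log2 values of 0.97 to 1.46.

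*Ugt1a6* is 1 of 8 members of the *Ugt1a* locus on chromosome 9, which in rn5 spans chr9:94880265-94990037 on the forward strand. Each *Ugt1a* transcript joins a first exon of its own to the same final exons, and the transcripts in the files shared 1373 bases, 58.4 to 61.6% of their length. Reads from the shared exons have to be divided between the members by RSEM, so their separate values are less certain than the sum of the locus. The neighbour *Ugt1a1*, which glucuronidates bilirubin, showed a smaller difference. It had 600.0, 687 and 532 CPM in AL rats and 798, 635 and 586 CPM in HD rats, a log2 fold change of 0.15 ± 0.16 (adjusted *P* = 0.813), and its groups overlapped. As a share of the summed *Ugt1a* TPM, *Ugt1a6* held 4.16 to 6.13% in AL rats and 8.90 to 9.99% in HD rats. *Ugt1a1* held 91.2 to 93.7% in AL rats and 87.4 to 88.8% in HD rats, so the locus was mostly *Ugt1a1* under both diets.

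The files hold 2 *Ugt1a6* transcripts. The transcript that begins at position 94932534 stood at 12.3, 20.4 and 14.9 TPM in AL rats and 46.4, 43.5 and 26.6 TPM in HD rats. The one that begins at position 94928825 stood at 4.75, 15.1 and 3.16 TPM in AL rats and 7.85, 3.36 and 15.9 TPM in HD rats. The groups were apart for the first transcript and overlapped for the other, whose deposited posterior interval was 0.653 to 2.74 times as wide as its value, against 0.303 to 1.07 times for the first.

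Because the *Ugt1a* members differ in their starts and not in their ends, the promoters of *Ugt1a6* and *Ugt1a1* are shown, with those of *Ugt2b15* and *Gsta3*, which were also higher in HD rats by mean CPM. Each runs from 250 bases before to 50 bases after the start of the RefSeq gene in GRCr8, 5′ to 3′. Capitals mark 2 motifs searched on both strands, which do not overlap in these 4 promoters: GCGTG (the core bound by the aryl hydrocarbon receptor) and TGACNNNGC (the antioxidant response element bound by Nrf2).
Ugt1a6, chr9:96194768-96195067, forward strand: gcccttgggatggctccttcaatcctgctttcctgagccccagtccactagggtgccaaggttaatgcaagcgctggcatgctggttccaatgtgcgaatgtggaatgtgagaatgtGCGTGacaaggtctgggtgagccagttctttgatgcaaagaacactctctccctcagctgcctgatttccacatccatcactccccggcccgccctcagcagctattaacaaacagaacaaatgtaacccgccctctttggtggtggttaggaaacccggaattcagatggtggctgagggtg
Ugt1a1, chr9:96248893-96249192, forward strand: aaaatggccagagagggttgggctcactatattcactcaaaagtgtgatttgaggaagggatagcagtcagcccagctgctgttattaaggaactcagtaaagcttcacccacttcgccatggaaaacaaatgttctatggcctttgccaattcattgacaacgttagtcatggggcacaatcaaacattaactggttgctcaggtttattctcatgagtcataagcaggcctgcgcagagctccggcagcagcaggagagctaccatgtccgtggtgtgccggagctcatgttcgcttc
Ugt2b15 (RefSeq symbol Ugt2b35), chr14:21208191-21208490, forward strand: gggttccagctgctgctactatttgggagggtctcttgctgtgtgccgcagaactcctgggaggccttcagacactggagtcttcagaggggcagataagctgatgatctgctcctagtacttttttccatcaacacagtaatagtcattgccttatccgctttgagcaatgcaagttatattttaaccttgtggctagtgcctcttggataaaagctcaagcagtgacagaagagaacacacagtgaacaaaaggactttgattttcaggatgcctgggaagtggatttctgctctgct
Gsta3 (RefSeq symbol Gsta1), chr9:31216483-31216782, reverse strand: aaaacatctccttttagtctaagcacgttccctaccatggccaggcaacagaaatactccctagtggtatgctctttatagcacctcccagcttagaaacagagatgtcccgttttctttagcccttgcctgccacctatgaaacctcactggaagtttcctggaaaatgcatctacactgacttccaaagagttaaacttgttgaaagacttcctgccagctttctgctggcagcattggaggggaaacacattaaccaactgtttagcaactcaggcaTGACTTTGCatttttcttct

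The start in the *Ugt1a6* window lies 54125 bases before that of *Ugt1a1* in GRCr8. In rn5 the transcript that begins at position 94928825 lies 54091 bases before *Ugt1a1* and the one that begins at position 94932534 lies 50382 bases before it. The window therefore matches the first of these, whose groups overlapped, and the promoter of the transcript whose groups were apart is not shown. In the *Ugt1a6* window GCGTG began 133 bases before the start, and the *Gsta3* promoter held TGACNNNGC from base 31 after the start. The *Ugt1a1* and *Ugt2b15* windows held neither motif. The same search over 51 promoters matched to 50 members found TGACNNNGC in 8 (15.7%), beside 12.2% of 27457 RefSeq promoters of the same length, and GCGTG in 13 (25.5%), beside 31.1%. Members of 1 locus share ancestry, so their promoters are not independent. A match describes letters only.

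*Ugt2b15*, on rn5 chr14:22455325-22493180, belongs to the family that glucuronidates steroids. It had 168, 99.5 and 90.4 CPM in AL rats 61, 71 and 88 and 444, 290.3 and 157 CPM in HD rats 64, 67 and 69. Rats 64 and 67 lay above all AL rats, and rat 69 lay just below AL rat 61. The mean was 119 ± 42.7 CPM in AL and 297 ± 144 CPM in HD rats (SD, n = 3), 2.49-fold higher in HD rats, or 1.31 ± 0.39 on the log2 scale (edgeR adjusted *P* = 0.404, DESeq2 adjusted *P* = 0.0294). In the files' annotation it supplied 97.9 to 99.5% of the summed *Ugt2b* TPM, so the family total followed it. That total was 79.3 to 132 TPM in AL rats and 137 to 362 TPM in HD rats, a ratio of means of 2.39. The groups were narrowly apart in this TPM sum, while *Ugt2b15* overlapped in CPM. Its neighbour *Ugt2b7* was near the detection limit, with 5 to 91 reads per rat. It had 0.953, 0.499 and 0.331 CPM in AL rats and 7.72, 3.70 and 0.224 CPM in HD rats, with rats 64 and 67 high and rat 69 the lowest of all 6 (log2 fold change 2.68 ± 1.09, adjusted *P* = 0.456). Leaving out any 1 rat moved that value between 1.71 and 3.28.

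The other 5 tested UGT members ran from log2 fold changes of −1.32 (*Ugt1a8*) to 0.73 (*Ugt1a2*, 0.22 to 1.53 with 1 rat left out), with adjusted *P* from 0.489 upward, and none separated the diets. *Ugt8* was lower in HD rats at −0.82 ± 0.39. The other 9 UGT members were not tested. *Ugt1a3* reached at most 21 reads in any rat, *Ugt1a5* 18, *Ugt2b17* 17, *Ugt2b* 7, *Ugt2b37* 4, *Ugt2b10* 2, *Ugt2a3* and *Ugt2b1* 1 each, and *Ugt2a1* 0. The class median depended on single rats, with 1.07 when AL rat 71 was left out, 0.31 without AL rat 88 and 0.25 without HD rat 69.

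In the GST class 16 of 20 members were tested, and 13 were higher in HD rats. The alpha class GST enzymes, which also reduce lipid hydroperoxides, were the most abundant, with 6749, 6578 and 7132 summed TPM in AL rats and 6879, 7593 and 8618 summed TPM in HD rats. The named difference among them was *Gsta3*, on rn5 chr9:26283550-26300195. It had 1057, 632 and 1008 CPM in AL rats 61, 71 and 88 and 1550.5, 1724 and 1123 CPM in HD rats 64, 67 and 69. All HD rats lay above all AL rats, rat 69 by the least. The mean was 899 ± 232 CPM in AL and 1466 ± 309 CPM in HD rats (SD, n = 3), 1.63-fold higher in HD rats, or 0.71 ± 0.24 on the log2 scale (edgeR adjusted *P* = 0.406).

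*Gsta2* also separated the diets in normalized CPM, though by little. In TPM the groups overlapped, with 1614, 1930.3 and 1793 in AL rats and 1700.4, 1786 and 2408 in HD rats. Its CPM was 875, 872 and 867 in AL rats and 898, 959 and 1166 in HD rats (log2 fold change 0.21 ± 0.14, edgeR adjusted *P* = 0.643). The AL rats varied by 4.27 CPM (SD) and the HD rats by 140.5 CPM (SD). *Gsta5*, the most abundant member, overlapped, with 1583, 1225 and 1370.3 CPM in AL rats and 1239.5, 1454 and 1641 CPM in HD rats (log2 fold change 0.05 ± 0.16, adjusted *P* = 0.952). Its sign turned to −0.01 when counts were scaled by library size alone, and the 4 of 4 tested alpha members that were higher in HD rats became 2 of 4. Nearly all *Gsta5* signal came from a transcript on chromosome 8 with 2349 to 3413 TPM per rat. That transcript overlaps *Gsta2* in rn5 and shares 761 bases with it, 96.1% of its own length, so the division of reads between *Gsta2* and *Gsta5* is uncertain. The 2 *Gsta5* transcripts on chromosome 9, which RefSeq now lists under the symbol Gsta3, had 19.0 to 59.4 TPM.

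The mu class, a cluster on chromosome 2 whose enzymes act on epoxides and quinones, was higher in HD rats in 5 of 5 tested members, with log2 fold changes of 0.22 (*Gstm2*) to 0.74 (*Gstm5* and *Gstm7*) and a median of 0.46. None of the 5 had an unadjusted *P* below 0.05 (adjusted *P* 0.534 to 0.755), and in none did the diets separate. The count of 5 of 5 was the same with library size alone.

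The omega class went the other way. Its members *Gsto1* and *Gsto2*, which reduce dehydroascorbate and methylated arsenic, lie next to each other at rn5 chr1:275040049-275050033 and chr1:275050894-275072303. *Gsto1* had 266, 230.2 and 278 CPM in AL rats and 217, 199 and 196 CPM in HD rats. Every HD rat lay below every AL rat. Mean levels were 258 ± 25.0 CPM in AL and 204 ± 11.3 CPM in HD rats (SD, n = 3), 1.27-fold lower in HD rats, or −0.34 ± 0.12 on the log2 scale (edgeR adjusted *P* = 0.406). *Gsto2* was weak, with 34 to 155 reads per rat, and had 4.84, 8.59 and 8.14 CPM in AL rats and 3.31, 1.70 and 4.86 CPM in HD rats (log2 fold change −1.12 ± 0.42, adjusted *P* = 0.425). HD rat 69 lay just above AL rat 61, so the groups overlapped. Summed, the omega class had 461, 485 and 545 TPM in AL rats and 386, 346 and 383 TPM in HD rats.

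The remaining GST members gave no separation between diets. *Gstp1*, the pi class enzyme, had 275 CPM in AL rat 61 and 591 to 712 CPM in the other 5 rats, and its log2 fold change of 0.34 ± 0.31 (adjusted *P* = 0.763) lay between 0.04 and 0.61 when 1 rat was left out. The theta class member *Gstt3*, chosen after its values were seen, had 868, 684 and 1059 CPM in AL rats and 1523, 1251 and 952 CPM in HD rats (0.51 ± 0.22, adjusted *P* = 0.476). *Gstt1*, *Gstt2*, *Gstk1* and *Gsta4* had log2 fold changes between −0.25 and 0.22. The 4 GST members that were not tested were *Gstm3* with at most 14 reads in any rat, *Gstm6l* with 4, *Gstm6* with 1 and *Gstt4* with 0.

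In the SULT class 10 of 14 members were tested, and 8 were lower in HD rats, the reverse of the other classes. *Sult1c2a* and *Sult1c2*, on chromosome 9, belong to a sulfotransferase family found in stomach and kidney. *Sult1c2a* was the most abundant SULT by TPM, and with *Sult1c2* it supplied nearly all of the *Sult1c* level. It had 4913, 5885 and 3775 CPM in AL rats 61, 71 and 88 and 4014, 3089.7 and 2862 CPM in HD rats 64, 67 and 69. HD rat 64 lay above AL rat 88 and the other HD rats lay below all AL rats. Mean levels were 4858 ± 1056 CPM in AL and 3322 ± 610.4 CPM in HD rats (SD, n = 3), 1.46-fold lower in HD rats, or −0.55 ± 0.22 on the log2 scale (edgeR adjusted *P* = 0.445).

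*Sult1c2* had 1067, 797 and 714 CPM in AL rats and 605, 379 and 605 CPM in HD rats. All HD rats were below all AL rats. Mean levels were 859 ± 184 CPM in AL and 529.9 ± 131 CPM in HD rats (SD, n = 3), 1.62-fold lower in HD rats, or −0.70 ± 0.23 on the log2 scale (edgeR adjusted *P* = 0.406). The gene spans rn5 chr9:3693361-3723355, and the transcript of *Sult1c2a*, listed over chr9:3191456-3717395, shares 378 bases with it, 12.4% of the *Sult1c2* length, so reads could be exchanged between the pair. Their balance was alike under both diets, since *Sult1c2a* held 81.9 to 87.9% of the summed *Sult1c* TPM in AL rats and 82.3 to 88.8% in HD rats. The family sum, which does not depend on how reads were divided within it, was 2777, 3723 and 2338 TPM in AL rats and 2203, 1628 and 1804 TPM in HD rats. All HD rats lay below all AL rats in this TPM sum, with a ratio of means of 0.638. In normalized CPM its larger part, *Sult1c2a*, overlapped, with 4014 in HD rat 64 and 3775 in AL rat 88.

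*Sult1b1*, which sulfates thyroid hormone and simple phenols, overlapped, with 205, 131 and 245 CPM in AL rats and 216, 216 and 126 CPM in HD rats (log2 fold change −0.06 ± 0.28, adjusted *P* = 0.972). Its sign turned to 0.15 without AL rat 88 and to 0.16 without HD rat 69. The other 7 tested SULT members had adjusted *P* of 0.694 or more. *Sult1c3* was the highest at 1.07, or 0.57 to 1.84 with 1 rat left out. *Sult2a6* was at 0 in 2 AL and 2 HD rats, and its fitted log2 fold change of −1.54 ran from −8.91 to 7.62 with 1 rat left out, so it has no stable sign. The genes *Sult2a1*, *Sult2a2* and *Sult2a6*, hydroxysteroid sulfotransferases, are near-identical and listed as duplicate entries on chromosome 1, so their separate values are uncertain. The untested SULT members were *Sult5a1* with at most 25 reads in any rat, *Sult6b1* with 5, and *Sult1d1* and *Sult1e1* with 3 each. The class median of −0.28 became −0.50 without HD rat 67, −0.17 without AL rat 88 and −0.09 without HD rat 69.

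**Figure D3:**
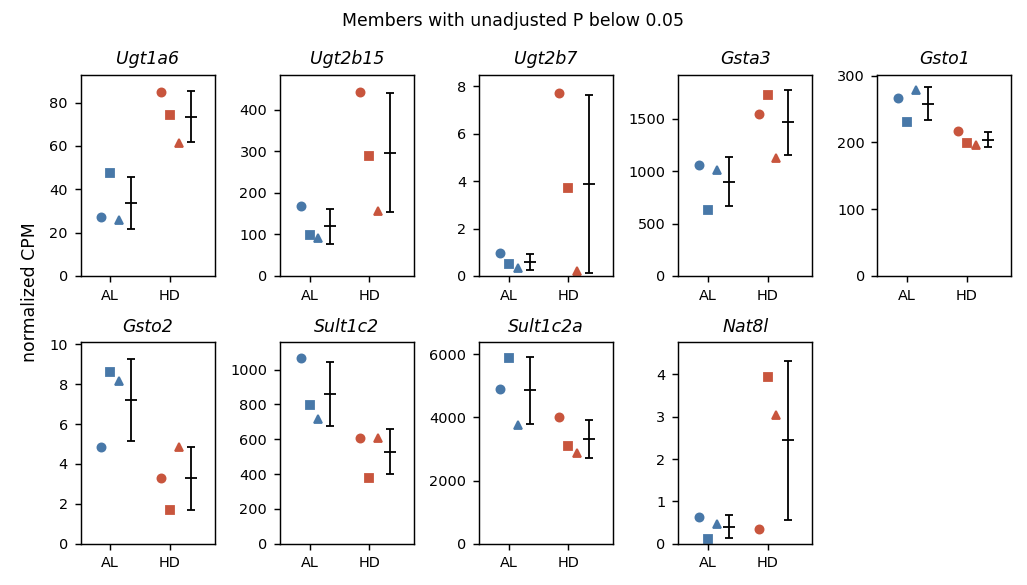
Normalized CPM in each rat of the 9 members with an unadjusted *P* below 0.05 in edgeR. Circles, squares and triangles are rats 61, 71 and 88 in AL (blue) and rats 64, 67 and 69 in HD (red), and black bars give the mean and SD of 3 rats. The groups are apart for *Ugt1a6*, *Gsta3*, *Gsto1* and *Sult1c2* and overlap for the other 5.

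In the NAT class 8 of 9 members were tested. The 2 abundant ones, *Nat8* and *Nat8b* on chromosome 4, belong to the kidney and liver enzymes that acetylate cysteine conjugates, the final step in making mercapturic acids. *Nat8* had 451, 272 and 382 CPM in AL rats and 467, 508 and 351 CPM in HD rats (log2 fold change 0.26 ± 0.22, adjusted *P* = 0.739). *Nat8b* had 591, 377 and 331 CPM in AL rats and 588, 487 and 398 CPM in HD rats (0.18 ± 0.25, adjusted *P* = 0.858). Both overlapped between diets, and *Nat8b* is listed at 2 places in rn5 between which its reads were divided. *Nat9* was steadier, with 39.7 to 53.1 CPM in AL and 44.3 to 51.9 CPM in HD rats (0.09 ± 0.14, adjusted *P* = 0.882).

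*Nat8l* was the NAT member with an unadjusted *P* below 0.05, and it had only 2 to 95 reads per rat. It stood at 0.635, 0.111 and 0.463 CPM in AL rats and 0.340, 3.95 and 3.04 CPM in HD rats, so rats 67 and 69 were high and rat 64 lay inside the AL range (log2 fold change 2.66 ± 0.91, edgeR adjusted *P* = 0.406). On log2(TPM + 0.5) the difference was 1.06. The arylamine acetyltransferases *Nat1* and *Nat2* had log2 fold changes of −0.15 ± 0.17 and −0.02 ± 0.35, and *Nat10* and *Nat14* had 0.15 ± 0.15 and 0.20 ± 0.23. *Nat3* was not tested, with at most 2 reads in any rat.

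*Glyat* on chromosome 1, the mitochondrial enzyme that makes hippurate from benzoyl-CoA and glycine, was among the 5 most abundant members by TPM. It had 765, 647 and 716 CPM in AL rats and 857, 916 and 691 CPM in HD rats. Rats 64 and 67 were above all AL rats and rat 69 was inside the AL range (log2 fold change 0.21 ± 0.15, 1.16-fold, edgeR adjusted *P* = 0.675). *Glyatl3* had at most 1 read in any rat and was not tested.

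Genes that feed, follow or regulate conjugation were read from 10 lists, 111 genes in all, of which 100 were tested. The lists were chosen with earlier results of these data known. Their shares beside those of all genes, here and in each list below, are therefore descriptions and not a test. An unadjusted *P* below 0.05 was reached by 22 of the 100 (22.0%, all genes 10.6%), 19 higher and 3 lower in HD rats (all genes 4.66% and 5.94%). Their median log2 fold change was 0.13. None passed the adjusted threshold in edgeR, while DESeq2 passed 8 of the 100 (all genes 1.58%). The 22 became 14 without AL rat 71, 12 without AL rat 88 and 14 without HD rat 64.

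In the list for PAPS and sulfate, the substrate side of the SULT enzymes, 8 of 10 tested genes were higher in HD rats, and the median was 0.18. An unadjusted *P* below 0.05 was reached by 4 of the 10 (40.0%, all genes 10.6%), each higher in HD rats. *Slc13a1*, the sodium-sulfate cotransporter that reclaims sulfate from the tubule fluid, had 24.0, 32.7 and 27.5 CPM in AL rats and 117, 79.4 and 56.2 CPM in HD rats. Every HD rat lay above every AL rat, a log2 fold change of 1.58 ± 0.27 or 2.99-fold (edgeR adjusted *P* = 0.327, DESeq2 adjusted *P* = 1.36e-05). *Slc26a1*, the exchanger on the blood side, had 104, 115 and 86.6 CPM in AL rats and 206, 159 and 131 CPM in HD rats (0.70 ± 0.19, edgeR adjusted *P* = 0.398, DESeq2 adjusted *P* = 0.0567).

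*Mpst*, a mitochondrial and cytosolic sulfurtransferase of cysteine breakdown, had 119, 97.9 and 115 CPM in AL rats and 167, 149.6 and 171 CPM in HD rats (0.55 ± 0.12, edgeR adjusted *P* = 0.368, DESeq2 adjusted *P* = 0.0133). *Suox*, sulfite oxidase, which forms sulfate, had 101, 95.1 and 90.1 CPM in AL rats and 138, 129 and 128 CPM in HD rats (0.47 ± 0.10, edgeR adjusted *P* = 0.368, DESeq2 adjusted *P* = 0.0128). All 4 genes separated the diets, 40.0% of the 10 tested, beside 14.3% of all genes. These 4 were the genes with an unadjusted *P* below 0.05, so their separation is not a separate result. The genes between sulfate and the sulfotransferases did not separate the diets. Log2 fold changes were 0.11 ± 0.12 for *Papss1* and 0.11 ± 0.13 for *Papss2*, the PAPS synthases, and −0.02 ± 0.10 for the PAPS carrier *Slc35b2*. *Slc26a1*, *Suox*, *Papss1*, *Papss2* and *Slc35b2* were chosen after their values were seen.

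**Figure D4:**
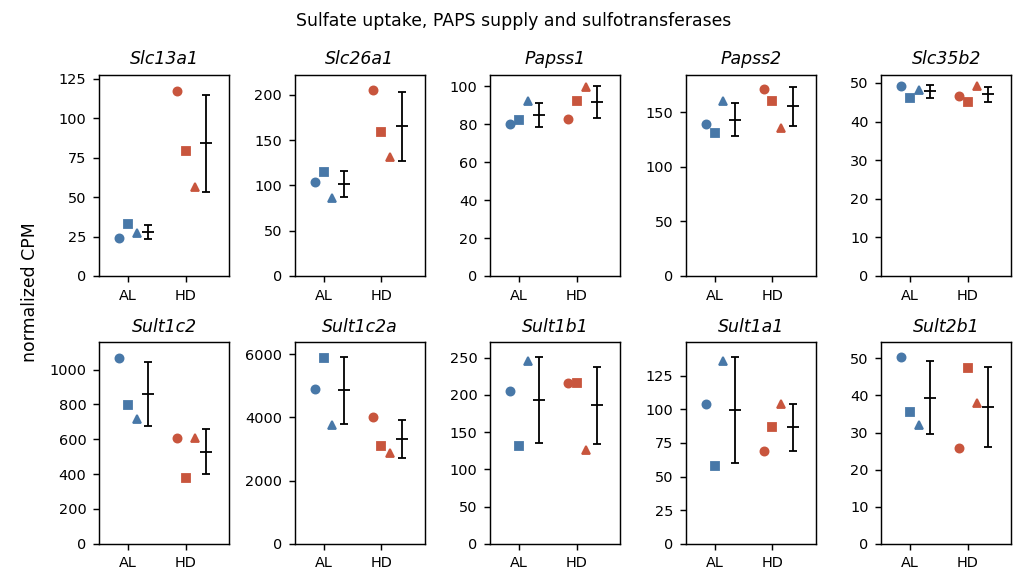
Normalized CPM in each rat for 5 genes of sulfate uptake and PAPS supply (top row) and 5 sulfotransferases (bottom row), with the mean and SD of 3 rats in black and the same symbols for rats as in the plot of single members. The carriers *Slc13a1* and *Slc26a1* are higher in every HD rat, *Papss1*, *Papss2* and *Slc35b2* overlap, and *Sult1c2* is lower in every HD rat.

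For glutathione, the substrate of the GST enzymes, the list held genes of synthesis together with genes of breakdown. Its counts therefore do not measure supply alone. In HD rats 6 of 8 tested genes were higher, and the median was 0.23. An unadjusted *P* below 0.05 was reached by 3 of the 8 (37.5%, all genes 10.6%), each higher in HD rats. With library size alone the split became 4 higher and 4 lower. *Gclm*, the modifier subunit of the enzyme that sets the pace of glutathione synthesis, had 1609.7, 1378 and 1489 CPM in AL rats and 2317, 2022 and 1664 CPM in HD rats (log2 fold change 0.42 ± 0.16, edgeR adjusted *P* = 0.426). All HD rats were above all AL rats, rat 69 again by the least. *Chac1*, which breaks down glutathione, had only 7 to 142 reads per rat and reached the reads needed for testing only in HD rats. It stood at 0.556, 1.11 and 0.794 CPM in AL rats and 0.934, 1.90 and 4.54 CPM in HD rats. Its log2 fold change of 1.59 ± 0.62 (adjusted *P* = 0.437) lay between 0.79 and 1.96 when 1 rat was left out.

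Glutathione conjugates are trimmed to cysteine conjugates and then acetylated or cleaved, the mercapturate pathway. Of its 14 tested genes 8 were higher and 6 lower in HD rats, with a median of 0.14. *Agxt2*, a mitochondrial aminotransferase of the kidney that can also act on cysteine conjugates, had 1219.8, 1132 and 1363 CPM in AL rats and 1898, 1823 and 1724 CPM in HD rats (0.55 ± 0.13, edgeR adjusted *P* = 0.368, DESeq2 adjusted *P* = 0.00352). *Dpep1*, a dipeptidase that removes glycine from the trimmed conjugate, had only 16 to 134 reads per rat. It stood at 3.65, 7.43 and 5.43 CPM in AL rats and 1.36, 1.55 and 2.62 CPM in HD rats (−1.55 ± 0.39, edgeR adjusted *P* = 0.379, DESeq2 adjusted *P* = 0.0376). The groups were apart for both genes, in opposite directions, and for 6 of the 14 tested genes in all (42.9%, all genes 14.3%).

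No gene of UDP-glucuronic acid supply (7 tested, median 0.18) and none of acyl-CoA and glycine supply (11 tested, median −0.02) had an unadjusted *P* below 0.05. *Ugdh*, which makes UDP-glucuronic acid and was chosen after its values were seen, had a log2 fold change of 0.18 ± 0.18.

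Carriers of anions and conjugates held the largest single difference near the members. Of 12 tested, 7 were higher and 5 lower in HD rats. An unadjusted *P* below 0.05 was reached by 5 (41.7%, all genes 10.6%), 3 of them higher. *Slc22a8*, the organic anion transporter OAT3 on the blood side of the proximal tubule, had 14.7, 14.8 and 17.2 CPM in AL rats and 247, 105 and 77.6 CPM in HD rats. The lowest HD rat stood far above the highest AL rat, a log2 fold change of 3.20 ± 0.43 or 9.16-fold (edgeR adjusted *P* = 0.254, DESeq2 adjusted *P* = 1.36e-13). Leaving out 1 rat gave log2 values of 2.55 to 3.51. *Abcc5*, an efflux pump for organic anions and nucleotides, had 33.6, 53.1 and 58.8 CPM in AL rats and 18.6, 22.9 and 25.4 CPM in HD rats (−1.12 ± 0.23, edgeR adjusted *P* = 0.338, DESeq2 adjusted *P* = 0.00232).

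Among 16 tested transcription factors of xenobiotic response and of the tubule, 13 were higher in HD rats, and the median was 0.16. An unadjusted *P* below 0.05 was reached by 5 of the 16 (31.2%, all genes 10.6%), each higher in HD rats. *Cebpa*, a factor of liver and fat metabolism, had 6.04, 5.43 and 4.76 CPM in AL rats and 8.83, 9.39 and 8.86 CPM in HD rats (0.74 ± 0.19, edgeR adjusted *P* = 0.398). *Nr1i2*, the pregnane X receptor, a sensor of foreign compounds that acts on *Ugt* and *Gst* genes in liver, had 13.6, 12.2 and 11.5 CPM in AL rats and 16.4, 16.8 and 16.8 CPM in HD rats (0.42 ± 0.14, edgeR adjusted *P* = 0.406). Both separated the diets, and 3 of the 16 tested factors did in all (18.8%, all genes 14.3%). The factors that bind the motifs searched above, chosen after their values were seen, had log2 fold changes of −0.04 ± 0.29 for *Ahr* and 0.12 ± 0.16 for *Nfe2l2*, which encodes Nrf2, with overlapping groups in each.

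**Figure D5:**
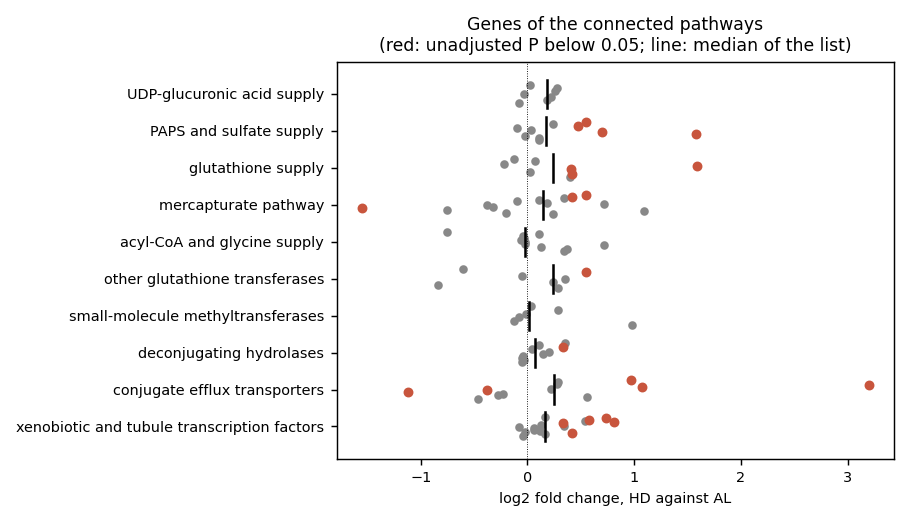
Log2 fold change, HD against AL, of the tested genes of 10 lists connected with conjugation, 1 point per gene, with the median of each list as a black line. Red points have an unadjusted *P* below 0.05 in edgeR. The list medians lie between −0.02 and 0.25, and the point farthest to the right, at 3.20, is *Slc22a8*.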

How the data were processed

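Kidney RNA of 6 rats was poly(A)-selected and sequenced by the authors as single-end reads, 1 library per rat. The authors quantified transcripts with RSEM (version 1.1.15 per the submitters' processing notes) on gene definitions for genome build rn5. They deposited, per transcript, an estimated count that is not normalized, TPM values scaled to transcript length and library size, and a signal (transcript expression) with its posterior interval.

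Estimated counts were summed per gene and rounded. Genes with at least 30 in at least 1 rat were tested with edgeR 4.0.16 (R 4.3.3, quasi-likelihood test, TMM, diet as the only factor), with the Benjamini-Hochberg adjustment taken over all genes tested. The SE is the absolute log2 fold change divided by the square root of F. DESeq2 1.42.0, limma 3.58.1, other scalings and filters, the posterior mean count and the most abundant transcript were alternatives, and each rat was left out in turn. Normalized CPM compares diets and TPM compares genes. Depth differed between rats, so members with few reads carry wide errors.

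Named were members with an unadjusted *P* below 0.05, members whose groups did not overlap, the 3 most abundant tested members of each class by TPM, and at most 2 genes per pathway list with the smallest unadjusted *P* below 0.05. Exceptions are stated. Members and lists were chosen with earlier results of these data known. RefSeq symbols and promoters (GRCr8) were matched by transcript, 71 of 74 member transcripts, and no coordinates were converted between builds. RefSeq gives 4 members another symbol for at least 1 transcript, *Gsta3* (Gsta1), *Gsta5* (Gsta3 for its chromosome 9 transcripts), *Ugt2b15* (Ugt2b35) and *Ugt2b17* (Ugt2b15), and the text uses the files' symbols. Plots were made with Python 3.11.15 and matplotlib 3.10.9.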

Additional observations from a re-analysis of the deposited data

How the results depend on the processing

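The count of members at an adjusted *P* of at most 0.05 was 0 in edgeR and in its alternatives and became 2 with DESeq2 (*Ugt1a6* and *Ugt2b15*). The 9 members at an unadjusted *P* below 0.05 were 7 to 12 under the other alternatives and 5 to 11 when 1 rat was left out, the 5 without AL rat 71. The 22 pathway genes were 16 to 26 under the other alternatives and 12 to 32 when 1 rat was left out. With 1 rat left out, class medians ran from 0.25 to 1.07 for UGT, 0.16 to 0.25 for GST, −0.50 to −0.09 for SULT, 0.08 to 0.29 for NAT and 0.13 to 0.33 for GLYAT. The GLYAT median became −0.04 without a filter on low counts, which added *Glyatl3* with 1 read in an AL rat and 1 in an HD rat. *Gsta5* changed sign to −0.01 with library size alone, −0.02 with limma on log2(TPM + 0.5), −0.03 without AL rat 71 and −0.04 without HD rat 69. *Sult1b1* changed sign to 0.15 without AL rat 88 and 0.16 without HD rat 69. With 1 rat left out, *Sult1b1* ran from −0.28 to 0.16 and *Gsta5* from −0.04 to 0.15. The cause of these shifts was not tested. Of 151 values for named members under the other alternatives, 147 kept their direction and side of the threshold, 2 passed it with DESeq2 and 2 changed sign. Of 102 values with 1 rat left out, 98 kept both and 4 changed sign. With no filter 61 members were tested, and with at least 10 reads in every rat 37. No paired analysis was possible because the 2 diets were given to different rats and the labels tie no AL rat to an HD rat.

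The median CV of the tested members over 3 rats was 25.3% in AL and 22.0% in HD rats, against 14.8 and 14.4% for all genes tested. Values of *Ugt2b7*, *Nat8l* and *Gsto2*, and of the pathway genes *Chac1* and *Dpep1*, rest on few reads. Those of the *Ugt1a*, *Gsta*, *Sult1c* and *Sult2a* members rest on how RSEM divided shared reads.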

Other observations

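Of 7 tested glutathione transferases and relatives that the naming pattern left out, such as the zeta class and the microsomal enzymes, 4 were higher and 3 lower in HD rats, with a median log2 fold change of 0.24. *Ptges*, prostaglandin E synthase, had 31.2, 24.3 and 24.6 CPM in AL rats and 45.7, 29.0 and 42.4 CPM in HD rats (0.55 ± 0.20, edgeR adjusted *P* = 0.409), with HD rat 67 inside the AL range. Of 10 tested hydrolases that remove conjugates, and their activating enzymes, 6 were higher and 4 lower, with a median of 0.08. *Sumf2*, a relative of the enzyme that activates sulfatases, had 30.3, 27.6 and 26.7 CPM in AL rats and 38.7, 34.9 and 32.5 CPM in HD rats (0.33 ± 0.12, edgeR adjusted *P* = 0.425), and its groups did not overlap. The 6 tested methyltransferases of small molecules split into 3 higher and 3 lower, with a median of 0.01 and no unadjusted *P* below 0.05.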
